A study of Mus musculus with 11 samples.

Results

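Injured and uninjured regions of the same B6 hearts were compared in 6 RNA sequencing libraries from 3 mice. B6 stands for C57BL/6J, an inbred laboratory strain whose mice carried no transgene or deletion that the labels name. The mice were 8 weeks old and the library titles carry the tag D7. The sources used here do not say how the injury was made. An uninjured and an injured region were sampled from each heart, so that each of mice 1, 2 and 3 gave a pair of libraries (n = 3 uninjured, n = 3 injured). The series as a whole held 11 libraries. The other 5 came from C3H/HeJ (C3H) mice of the same age, with n = 3 uninjured and n = 2 injured, and are used below only where the injury effect is compared between strains. Of 15274 genes measured, 14325 had a normalised count of 10 or more in at least 2 of the 6 B6 libraries and were tested, and 949 were not. The gene just inside this limit was 4930432K21Rik, with a next-to-highest value of 10.2, and the gene just outside was 2410018L13Rik with 9.78.

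When heart muscle is lost, it is replaced by a scar of collagen-rich matrix, because adult cardiomyocytes hardly divide. Resident fibroblasts, activated largely by TGF-beta, lay down this matrix and gain contractile proteins of smooth muscle, and are then called myofibroblasts. Macrophages and other leukocytes clear debris, and stretched cardiomyocytes turn on natriuretic peptides and other stress genes.

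In the injured regions 483 genes were higher and 325 lower, that is 3.37% and 2.27% of all genes tested, or 5.64% in either direction. Values are log2 differences of normalised count + 1, injured minus uninjured, tested within mice by limma at a threshold of 0.05 on p adjusted by Benjamini-Hochberg over the 14325 genes. Of the genes that rose, 305 changed by over 2-fold, and of those that fell, 56. The changes went the same way in 3 of 3 mice for 469 of the genes that rose and for all 325 that fell. Against this stand 23.1% of all genes tested that were higher and 24.7% that were lower in 3 of 3 mice. For 369 of the genes that rose and 145 of those that fell the values of the injured and uninjured libraries did not overlap, as for 17.6% of all genes.

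**Figure D1:**
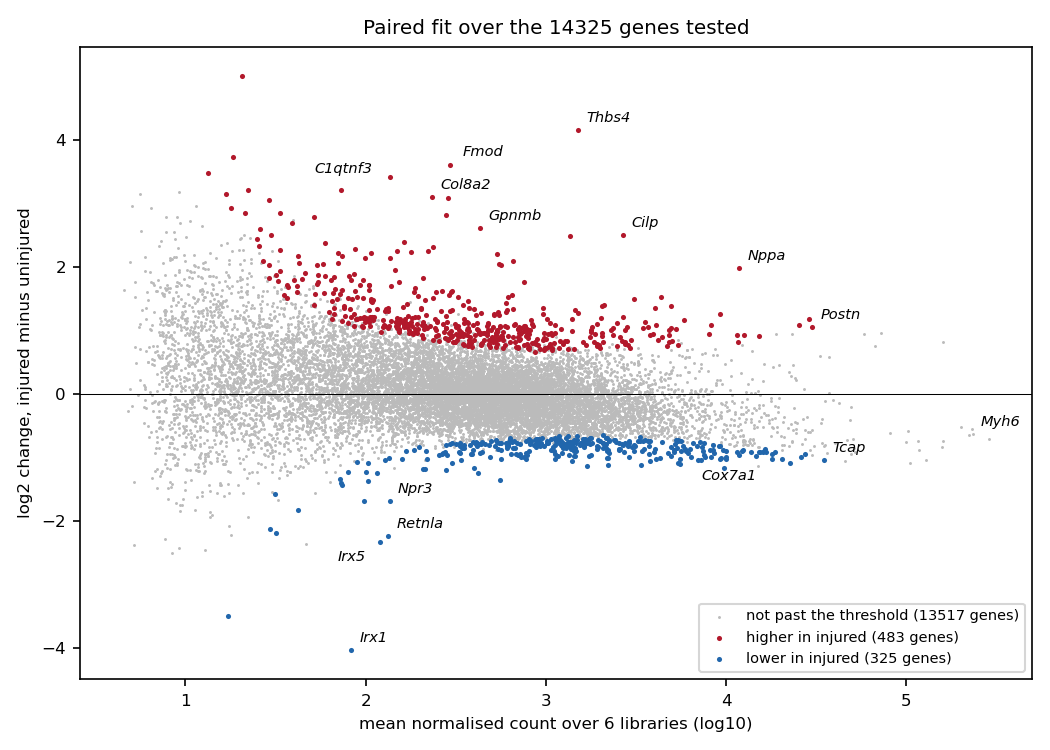
Each point is 1 of the 14325 genes tested, with its mean normalised count over the 6 B6 libraries on the x axis (log10) and its log2 change from the paired fit on the y axis. Thbs4 (4.15) and Irx1 (-4.03) lie at the upper and lower edge among genes of intermediate to high level, and abundant cardiomyocyte genes such as Tcap (-1.04) and Myh6 (-0.63, not past the threshold) lie below 0.

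The number of genes called changed with the way the mouse entered the fit, with the libraries fitted and with single mice. Without the mouse as a block, the same 6 libraries gave 3 calls, Thbs4, Fmod and Angptl7. With the mouse as a random block there were 22 calls, and with all 11 libraries and animals as a block 23. Both of these fits also took account of the pairing, so that the count did not rest on the pairing alone. Of the 77 called genes named here, adjusted p without the block ran from 0.00371 to 0.515. Without mouse 1 the paired fit called 2158 genes, without mouse 2 it called 267 and without mouse 3 it called 336. With each mouse left out in turn, 82 of the 483 genes that rose and 26 of the 325 that fell were called in all 3 fits, among them 42 of the 77 named. The 3 mice did not change to the same extent: the SD of the log2 change over all genes was 0.55 in mouse 1, 1.01 in mouse 2 and 0.66 in mouse 3. All 808 called genes kept their direction in every alternative fit in which they were tested. This was largely fixed in advance. Of the calls, 469 that rose and all 325 that fell had the same sign in 3 of 3 mice, and other blocks leave the estimates unchanged.

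Depth and transcript length moved with injury. The uninjured libraries held 15132535, 9699985 and 14617739 reads in mice 1, 2 and 3, and the injured ones 20257174, 19596774 and 17004127, so that each injured library was the deeper of its pair. The median transcript length was 3831 bases for genes that rose, 1357 for genes that fell and 3104 for all genes with a known length. In mouse 2 the median change went from -0.70 in the shortest decile of the genes to 0.45 in the longest, against -0.22 and 0.03 in mouse 1 and -0.23 and -0.02 in mouse 3. Of the 325 genes that fell, 144 were in the shortest decile. With the length trend of each library removed, 384 genes rose and 184 fell, and 311 and 129 of these were among the 483 and 325 above. With all libraries thinned to the depth of the shallowest, 375 rose and 273 fell. These fits were chosen after the data had been seen, and the part of depth, of length and of the tissue sampled in each difference was not tested.

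**Figure D2:**
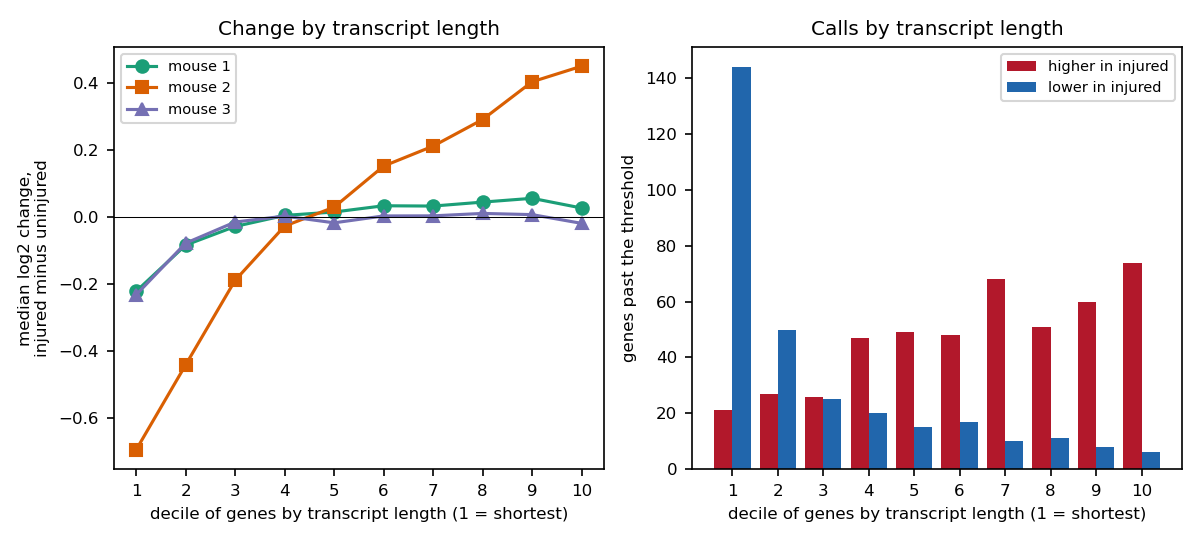
Left, the median log2 change (injured minus uninjured) of each decile of the genes by transcript length, by mouse; right, the number of genes called higher or lower in each decile. The line of mouse 2 climbs from -0.70 to 0.45, while those of mice 1 and 3 stay near 0 beyond the shortest deciles, and 144 of the genes that fell are in the shortest decile.

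Genes of the secreted matrix were among those with the largest increases. Thbs4 encodes thrombospondin-4, a secreted glycoprotein of tendon and of the injured heart. It stood at 222, 106 and 153 normalised counts in the uninjured regions of mice 1, 2 and 3 and at 2399.6, 4081 and 2081 in their injured regions. The gene rose by 4.15 (SE 0.26, adjusted p = 1.67e-08). Fmod, which encodes the collagen-binding proteoglycan fibromodulin, went from 66.3, 29.0 and 40.1 to 435, 672 and 513 and rose by 3.61 (SE 0.30, adjusted p = 1.11e-06). Angptl7, a secreted angiopoietin-like protein, went from 72.2, 66.4 and 95.4 to 490.0, 355 and 335, a rise of 2.32 (SE 0.26, adjusted p = 4.36e-05). In these 3 genes the lowest injured value was several times the highest uninjured one, and they also passed without the block (limma, adjusted p = 0.00371, 0.00729 and 0.0331). Cilp, the cartilage intermediate layer protein, was more abundant, at 1040.0, 467 and 1003 in uninjured and 3351, 5355 and 4943 in injured regions, and rose by 2.50 (SE 0.25, adjusted p = 1.30e-05).

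The promoter of Thbs4 is shown because this gene had the lowest adjusted p of all genes tested. It is the RefSeq sequence of the 200 bases before the start on the minus strand of chr13:92794819-92795018 (GRCm38.p6), 5′ to 3′, in lower case throughout because neither a TATAAA motif nor a CArG box, the binding sequence of serum response factor, was found in it.
Thbs4: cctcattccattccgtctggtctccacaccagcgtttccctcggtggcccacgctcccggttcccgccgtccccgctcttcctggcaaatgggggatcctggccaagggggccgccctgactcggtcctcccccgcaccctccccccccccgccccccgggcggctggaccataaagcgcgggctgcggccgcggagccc

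**Figure D3:**
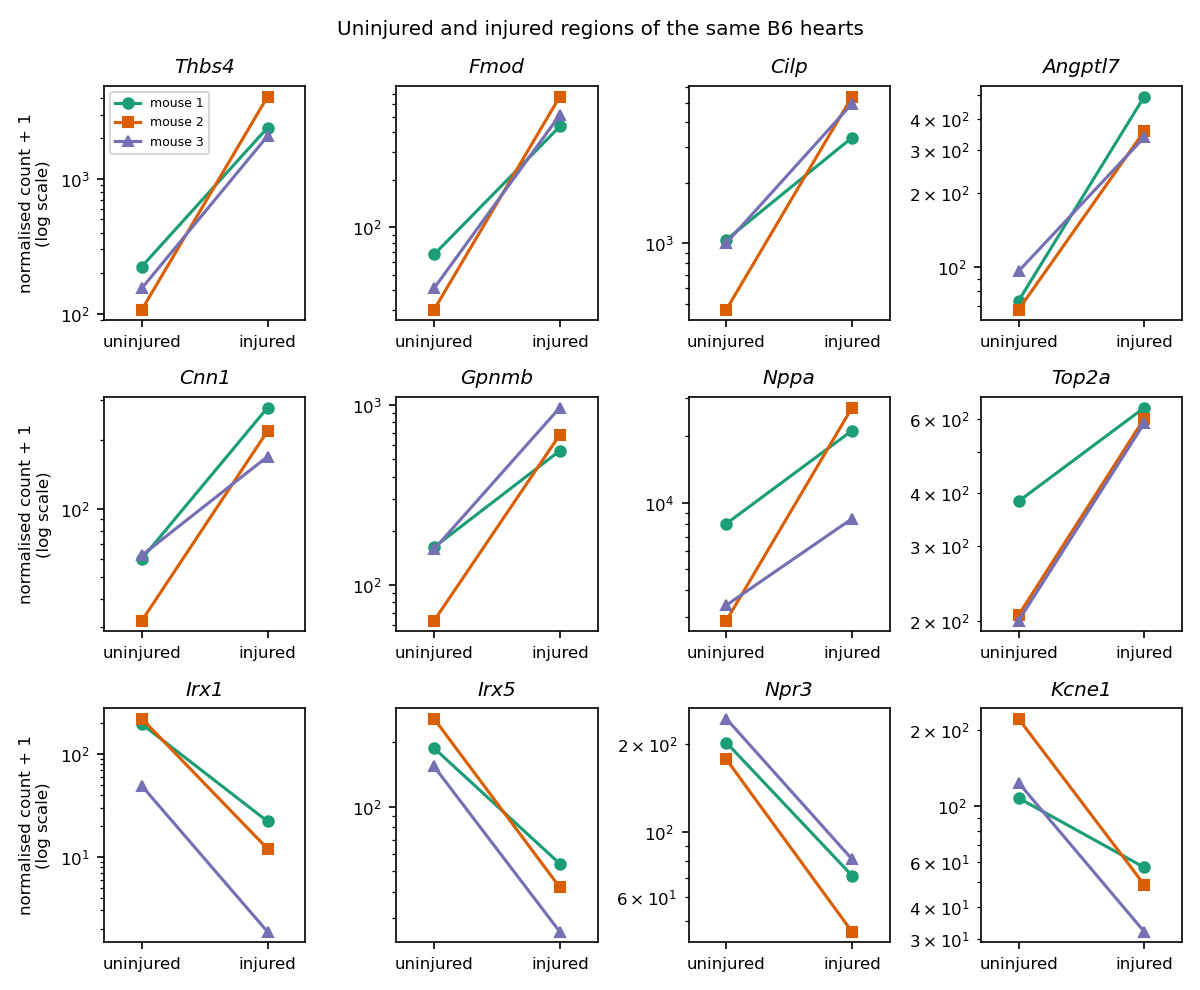
Normalised count + 1 (log axis) of 12 genes in the uninjured and injured region of each B6 heart, with a line for each mouse. All lines of Thbs4, Fmod, Cilp, Angptl7, Cnn1, Gpnmb, Nppa and Top2a climb and all lines of Irx1, Irx5, Npr3 and Kcne1 descend, and those of mouse 2 are the steepest for Thbs4, Fmod and Nppa.

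Of 25 matricellular and secreted glycoproteins of the matrix 13 rose and 0 fell (3.37% and 2.27% of all genes), with a median change of 0.94 against 0.01 over all genes, and medians of 0.39, 1.50 and 0.85 in mice 1, 2 and 3. Over the alternatives run for the lists this median ran from 0.57 to 1.26, and a range given beside a median below is of the same kind. Comp, the cartilage oligomeric matrix protein and a relative of thrombospondin-4, went from 208, 18.7 and 57.7 to 413, 686 and 297 and rose by 2.82 (SE 0.46, adjusted p = 0.00309). Its call was lost with DESeq2 (adjusted p = 0.0824) and with a robust prior (limma, adjusted p = 0.286). Tnc, the tenascin of healing wounds, rose by 1.32 (SE 0.25, adjusted p = 0.00935) from 1143, 456 and 1016 to 2122, 2332 and 1674. Postn encodes periostin, the classical product of activated cardiac fibroblasts. Its values of 32633, 14131 and 14407 in uninjured and 47239, 39657 and 31878 in injured regions overlapped between mice, and it rose by 1.06 (SE 0.28, adjusted p = 0.0370). The Postn call was lost without mouse 2 (adjusted p = 0.217) or mouse 3 (0.262). The list held 20, 8 and 9 genes that rose when mouse 1, 2 or 3 was left out.

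All 18 fibrillar and basement membrane collagen genes were higher in 3 of 3 mice, against 23.1% of all genes. Of the 18, 13 rose, against 3.37% of all genes. The median over the 18 was 0.95, and single members ran from 0.59 to 3.10. The medians by mouse were 0.26, 1.60 and 1.10. Together the collagens made up 2.24%, 0.941% and 1.35% of all normalised counts in the uninjured regions and 2.74%, 3.08% and 3.37% in the injured ones. The uninjured region of mouse 2 had the lowest share, and that of mouse 1 came closest to the injured range. Col8a2, a short-chain collagen, went from 130.2, 18.7 and 40.1 to 359.6, 426 and 432 and rose by 3.10 (SE 0.38, adjusted p = 0.000127). Col12a1, which lies on the surface of collagen fibrils, rose by 2.04 (SE 0.30, adjusted p = 0.00113) from 227, 106 and 348 to 599, 1149 and 850.1. The Col12a1 call was lost with a robust prior (limma, adjusted p = 0.0588). Col6a3, a chain of the microfibrillar collagen around cells, rose by 1.21 (SE 0.24, adjusted p = 0.0135). Col18a1, a basement membrane collagen, rose by 1.36 (SE 0.27, adjusted p = 0.0135), and its call was lost with a robust prior (limma, adjusted p = 0.0578).

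The most abundant collagens did not pass. Col1a1, the main chain of scar collagen, was at 74734, 28299 and 50472 in uninjured and 75903, 91923 and 113666 in injured regions, with log2 changes of 0.02, 1.70 and 1.17 in mice 1, 2 and 3 and 0.96 (SE 0.37, adjusted p = 0.110) in the fit. Col3a1 was at 187413, 88160.4 and 88719 and 213677, 198792 and 188689, with 0.82 (SE 0.42, adjusted p = 0.230). In both genes mouse 1 had the smallest difference and the highest uninjured value. Without mouse 1 the limma fit called both (adjusted p = 0.00165 and 0.0363), as did quantile normalization (0.0184 and 0.0103) and DESeq2 (0.0137 and 0.0132). Col1a1 was also called with a robust prior (limma, adjusted p = 0.0358). Of the 18 collagens, 18, 7 and 6 rose without mouse 1, 2 and 3.

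Among 10 small leucine-rich proteoglycans, which bind collagen fibrils and limit their width, 3 rose and 0 fell (3.37% and 2.27% of all genes, median 0.75). Beside Fmod these were Aspn (asporin), which went from 3733, 1839 and 1806 to 5485, 6161 and 3247, a rise of 1.05 (SE 0.22, adjusted p = 0.0169), and Bgn (biglycan), which rose by 1.08 (SE 0.30, adjusted p = 0.0419). The Bgn call was lost without mouse 2 (adjusted p = 0.314) or mouse 3 (0.214). Of 27 matrix remodelling enzymes 12 rose and 1 fell, with a median of 0.79. Loxl3 and Lox, lysyl oxidases that cross-link collagen, rose by 1.56 (SE 0.29, adjusted p = 0.00783) and 0.89 (SE 0.21, adjusted p = 0.0261). Loxl3 was at 536, 170.1 and 348 in uninjured and 779, 1189 and 878 in injured regions, and the ranges did not overlap. The Loxl3 call was lost with a robust prior (limma, adjusted p = 0.0835) and that of Lox without mouse 3 (0.240). Timp4, a tissue inhibitor of metalloproteinases abundant in heart, was the single member that fell. It went from 453, 886 and 457 to 232, 243 and 241, and the fall of 1.25 (SE 0.23, adjusted p = 0.00780) was seen in 3 of 3 mice. Without mouse 1, 2 and 3 the remodelling list held 15, 5 and 2 genes that rose and the proteoglycan list 5, 2 and 2.

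Genes known from cartilage and tendon were among the genes with the largest increases. Of 13 cartilage genes 5 rose and 0 fell, against 3.37% and 2.27% of all genes (median 1.07, single members from -0.92 to 5.01). Of 9 tendon genes 4 rose and 0 fell (median 1.07). The tendon list shares Thbs4 and Fmod with the matrix lists above, and Comp too. Matn4, a matrilin of cartilage and other matrix, went from 26.0, 4.15 and 11.8 to 45.7, 108 and 113 and rose by 2.78 (SE 0.55, adjusted p = 0.0132). Col11a1, a fibrillar collagen of cartilage, went from 48.5, 122 and 28.3 to 187, 319 and 170.2 and rose by 1.95 (SE 0.30, adjusted p = 0.00155). Matn4 and Col11a1 were low-level transcripts. The 15 cartilage genes measured, tested or not, made up 0.0127%, 0.00853% and 0.0110% of normalised counts in uninjured and 0.0168%, 0.0210% and 0.0199% in injured regions. Without mouse 1, 2 and 3 the cartilage list held 8, 4 and 4 genes that rose. Outside these lists, C1qtnf3, a secreted C1q and TNF related protein, went from 45.0, 12.4 and 16.5 to 233, 353 and 155, a rise of 3.41 (SE 0.39, adjusted p = 4.36e-05).

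Most genes of bone and mineral balance did not pass. Of all genes tested 3.37% rose and 2.27% fell. Of 8 osteogenic genes tested 1 rose, Spp1, and 0 fell (median 0.77, range over alternatives 0.42 to 0.79). Spp1 encodes osteopontin, which macrophages also secrete. It was at 579, 1319 and 266 in uninjured and 962, 1654 and 641 in injured regions, with mouse 2 highest in both, and rose by 0.77 (SE 0.21, adjusted p = 0.0401). The call was lost without mouse 3 (adjusted p = 0.397). Runx2, the master regulator of bone formation, was at 82.8, 62.2 and 82.5 and 117, 136 and 133, without overlap but not past the threshold (0.76 (SE 0.29, adjusted p = 0.114)). Among 12 genes of mineralization inhibitors and phosphate handling 2 rose and 0 fell (median 0.35, range 0.18 to 0.49), and 4, 0 and 1 rose without mouse 1, 2 and 3. Enpp1, the ectoenzyme that generates pyrophosphate, was at 697, 389.9 and 456 and 784, 1031 and 929 and rose by 0.86 (SE 0.23, adjusted p = 0.0346). Its call was lost without mouse 2 (adjusted p = 0.116), without mouse 3 (0.163) or with the length trend removed (0.0617).

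In the Wnt pathway 8 of 27 genes rose and 0 fell, against 3.37% and 2.27% of all genes (median 0.38). The median was 0.68 with a filter at 50 and 0.57 without mouse 3, but 0.23 after quantile normalization and 0.16 with the length trend removed. The secreted frizzled-related proteins Sfrp2 and Sfrp1, which bind Wnt ligands, led them. Sfrp2 went from 4784, 1545 and 1346 to 6878, 6490.4 and 5232 and rose by 1.52 (SE 0.25, adjusted p = 0.00325). Sfrp1 went from 3025, 1074 and 1159.5 to 3748, 5277 and 4287 and rose by 1.50 (SE 0.27, adjusted p = 0.00669), a call lost with DESeq2 (adjusted p = 0.0853). In both genes the uninjured region of mouse 1 stood well above the other uninjured regions and below all injured ones. Of the 27 Wnt pathway genes, 7, 6 and 4 rose without mouse 1, 2 and 3.

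The contractile proteins of myofibroblasts and the TGF-beta genes rose in part. Of 23 members 12 rose and 0 fell, against 3.37% and 2.27% of all genes. The median was 0.75, with medians of 0.47, 1.14 and 0.69 by mouse. Cnn1, calponin of smooth muscle and myofibroblasts, went from 59.2, 31.1 and 61.3 to 277, 218 and 168 and rose by 2.14 (SE 0.31, adjusted p = 0.000829). Actg2, the enteric smooth muscle actin, went from 73.4, 10.4 and 50.7 to 166, 151 and 144 and rose by 2.13 (SE 0.41, adjusted p = 0.00991). Tagln, the actin-binding protein transgelin, rose by 1.05 (SE 0.19, adjusted p = 0.00709) from 2776, 1655 and 1193 to 5129.5, 3489.5 and 2717, and Myh11, smooth muscle myosin, by 1.10 (SE 0.23, adjusted p = 0.0162) from 482, 263 and 898 to 667, 930.1 and 1811. For Tagln and Myh11 the mice differed so much in their baseline that the groups overlapped, though each rose in 3 of 3 mice. Acta2, the smooth muscle actin by which myofibroblasts are usually identified, did not pass, at 6493, 4291 and 3546 in uninjured and 9854, 7074 and 4678 in injured regions (0.57 (SE 0.21, adjusted p = 0.0937)). It passed after quantile normalization (limma, adjusted p = 0.0103), with DESeq2 (0.0461) and with length and GC trends removed (0.0413).

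On the TGF-beta side, Ltbp2, a microfibril protein of the latent TGF-beta binding family, went from 738, 156 and 509 to 1411, 2523 and 2883 and rose by 2.48 (SE 0.34, adjusted p = 0.000459). That call was lost with a robust prior (limma, adjusted p = 0.225). The ligand genes Tgfb3 and Tgfb2 rose by 1.38 (SE 0.25, adjusted p = 0.00623) and 0.97 (SE 0.22, adjusted p = 0.0228). Tgfb3 was at 1737, 635 and 1226 and 2395, 2922 and 3416, and Tgfb2 at 444, 243 and 425 and 696, 737 and 678, each without overlap. The Tgfb2 call was lost without mouse 2 (adjusted p = 0.0826) and that of Tagln without mouse 3 (0.0753). Of the 23 members, 15, 9 and 6 rose without mouse 1, 2 and 3.

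Many contractile genes are regulated through the CArG box. In windows of 200 bases before the start, a CArG box on either strand was found in 1.18% of 32851 RefSeq promoters (GRCm38.p6) and TATAAA in 9.96%. Of the 23 members 17 had a promoter in this table, and 2 of these held a CArG box, Myl9, which rose, and Cnn2, which did not pass. Tagln, Actg2 and Myh11, which rose, had no promoter there and were not examined. Myl9, the regulatory light chain of smooth muscle myosin, went from 1058, 657 and 475 to 1439, 1083 and 1268 and rose by 0.86 (SE 0.21, adjusted p = 0.0279). Its call was lost without mouse 3 (adjusted p = 0.348). Acta1, skeletal actin and a fetal gene of the stressed heart, is not among the 23 but has a CArG box too. It went from 16169, 5593 and 5840.0 to 22895, 12313 and 12703, a rise of 0.92 (SE 0.24, adjusted p = 0.0312). Its call was lost without mouse 2 (adjusted p = 0.0963) or mouse 3 (0.286). The windows of these genes that rose are printed 5′ to 3′, with the motifs in capitals: for Myl9 on the plus strand of chr2:156775264-156775463 a CArG box from base -161, and for Acta1 on the minus strand of chr8:123894776-123894975 a CArG box from base -73 and TATAAA from base -7, counted from the start. A match describes the letters in the window and is not a measured binding site.
Myl9: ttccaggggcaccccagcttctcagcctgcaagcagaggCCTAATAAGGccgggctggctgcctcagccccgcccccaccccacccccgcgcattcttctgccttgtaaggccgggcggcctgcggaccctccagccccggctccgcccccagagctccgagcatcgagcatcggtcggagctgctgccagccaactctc
Acta1: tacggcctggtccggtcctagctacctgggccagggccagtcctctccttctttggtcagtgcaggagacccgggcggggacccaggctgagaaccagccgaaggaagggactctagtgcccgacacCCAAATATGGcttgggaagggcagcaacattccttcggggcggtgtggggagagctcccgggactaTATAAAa

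Stress genes of the heart moved unevenly. Of 22 members 4 rose and 1 fell, against 3.37% and 2.27% of all genes (median 0.44, range 0.26 to 0.60). Without mouse 1, 2 and 3, 4, 3 and 2 members rose. After quantile normalization 9 members rose. Nppa encodes atrial natriuretic peptide, which the ventricle makes again under load. It was at 8007, 2893 and 3403 in uninjured and 21258, 27047 and 8439 in injured regions, highest in mouse 2 after injury, and rose by 1.98 (SE 0.29, adjusted p = 0.00113). The gene of its sister peptide, Nppb, was at 8281, 6995 and 4102 and 14285, 11988 and 5026 and did not pass (0.62 (SE 0.22, adjusted p = 0.0887)). It passed with quantile normalization (limma, adjusted p = 0.00545), with DESeq2 (0.0395) and with the length trend (0.0239) or the length and GC trends (0.0167) removed. Gdf15, a circulating stress cytokine, went from 87.6, 27.0 and 51.8 to 307, 299 and 203 and rose by 2.39 (SE 0.32, adjusted p = 0.000334). Outside the list, Sprr1a, a small proline-rich protein induced in stressed cardiomyocytes, went from 125, 33.2 and 46.0 to 552, 560.1 and 393 and rose by 3.08 (SE 0.30, adjusted p = 1.14e-05). Dio2, the deiodinase that activates thyroid hormone and also no member, went from 58.0, 6.22 and 49.5 to 111, 124 and 177, a rise of 2.29 (SE 0.45, adjusted p = 0.0132).

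Npr3, the clearance receptor of the natriuretic peptides and a marker of endocardium, went the other way. It was at 201, 176 and 243 in uninjured and 70.1, 44.8 and 79.9 in injured regions, a fall of 1.68 (SE 0.28, adjusted p = 0.00325). The groups did not overlap.

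Among the genes named, the largest decreases were those of Irx1 and Irx5. They belong to the Iroquois homeobox genes, transcription factors that pattern the ventricular wall and its repolarization. Irx1 was at 196, 222 and 48.3 in uninjured and 21.2, 11.0 and 0.860 in injured regions, and fell by 4.03 (SE 0.46, adjusted p = 4.36e-05). Mouse 3 had the lowest value in both regions. Its injured value was 1 read, so that its change of -4.73 depends on the 1 added before log2. The changes in mice 1 and 2 were -3.15 and -4.22. Irx5 went from 187, 257 and 153 to 53.0, 40.8 and 24.9 and fell by 2.33 (SE 0.31, adjusted p = 0.000334). Irx3 went from 826, 1058 and 647 to 497, 398 and 401 and fell by 0.94 (SE 0.21, adjusted p = 0.0198). They were the 3 that fell of 22 cardiac transcription factor genes, of which 0 rose, against 2.27% and 3.37% of all genes (median -0.26, range -0.32 to -0.16). All 3 were called with each mouse left out in turn.

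Of 29 potassium, sodium and calcium channel genes 3 fell and 0 rose, against 2.27% and 3.37% of all genes (median -0.34). Kcne1, the beta subunit of the slow delayed rectifier, went from 106, 219.8 and 123 to 56.3, 47.9 and 30.9 and fell by 1.68 (SE 0.33, adjusted p = 0.0132). Kcnj3, a subunit of the acetylcholine-gated channel, went from 1071, 1632 and 1579 to 787, 772 and 861 and fell by 0.80 (SE 0.20, adjusted p = 0.0281). Cngb3, a subunit of cyclic nucleotide-gated channels that is no member of this list, fell by 1.37 (SE 0.32, adjusted p = 0.0243) from 79.3, 265 and 112 to 49.7, 71.5 and 37.0. The calls of Kcnj3 and Cngb3 were lost without mouse 2 (adjusted p = 0.0557 and 0.121) or mouse 3 (0.176 and 0.0816). Of the 29 channel genes, 4, 1 and 1 fell without mouse 1, 2 and 3.

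Others with the largest decreases were of several kinds. Retnla, a resistin-like secreted protein of alternatively activated macrophages, went from 199, 328 and 140.2 to 49.7, 28.3 and 58.5 and fell by 2.24 (SE 0.36, adjusted p = 0.00256). Fbp2, the fructose bisphosphatase of muscle, went from 652, 1143 and 617 to 383, 271 and 267 and fell by 1.35 (SE 0.24, adjusted p = 0.00541). Dcaf12l1 fell by 1.41 (SE 0.35, adjusted p = 0.0281), from 102, 149 and 69.5 to 45.7, 35.4 and 33.5. Gfra4, a receptor of the GDNF family, fell by 1.24 (SE 0.30, adjusted p = 0.0261), from 147, 209 and 126 to 93.0, 74.6 and 41.3. Hopx, a homeodomain protein of cardiomyocytes that was listed as a marker of lung epithelium, went from 6220.0, 10805 and 5811 to 4114, 3057 and 3194 and fell by 1.09 (SE 0.23, adjusted p = 0.0167). The values of each of these 5 genes did not overlap between regions. The calls of Dcaf12l1, Gfra4 and Hopx were lost without mouse 2 (adjusted p = 0.162, 0.0564 and 0.0504), and that of Gfra4 also without mouse 3 (0.131).

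Genes of energy metabolism were mostly lower, though most did not pass. All 33 respiratory chain and TCA cycle genes were lower in 3 of 3 mice and 7 fell. Over all genes tested 24.7% were lower in 3 of 3 mice and 2.27% fell. The respiratory list had a median of -0.78 and medians of -0.34, -1.21 and -0.76 by mouse. Of 28 genes of fatty acid uptake and oxidation 9 fell and 0 rose (median -0.67, by mouse -0.24, -1.10 and -0.77). Cox7a1, a subunit of cytochrome oxidase in heart and skeletal muscle, was at 26073, 31777 and 14393 in uninjured and 17045, 10144 and 8191 in injured regions and fell by 1.02 (SE 0.26, adjusted p = 0.0310). Cox5a, another subunit, fell by 1.08 (SE 0.28, adjusted p = 0.0313), and Ndufa1, of complex I, by 1.05 (SE 0.23, adjusted p = 0.0186). Etfb, which passes electrons from fatty acid oxidation to the chain, went from 20143, 26700.5 and 11556 to 13596, 8941 and 6743 and fell by 0.97 (SE 0.25, adjusted p = 0.0328). Eci1, an enoyl-CoA isomerase, fell by 0.91 (SE 0.23, adjusted p = 0.0286). In these genes mouse 2 had the highest uninjured value, and mouse 3 the lowest value in both regions.

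Most of these calls were lost with mouse 2 or mouse 3 left out. Without mouse 1, 2 and 3 the respiratory list held 25, 0 and 1 genes that fell and the fatty acid list 19, 0 and 0. With the length trend removed 3 and 4 fell, at medians of -0.61 and -0.63. With length and GC trends removed 3 and 10 fell, at -0.61 and -0.63. After quantile normalization 2 and 1 fell, at -0.40 and -0.39, while a filter at 50 gave 12 and 9. The members had a median transcript length of 1661 and 2148 bases, against 3104 over all genes. Of the 5 genes named, 5 lost the call without mouse 2 (limma, adjusted p 0.0623 for Ndufa1 and 0.122 for Eci1, 0.201 for Cox7a1, 0.202 for Etfb and 0.231 for Cox5a). Without mouse 3 it was lost by Cox7a1 (0.140), Cox5a (0.127), Etfb (0.147) and Eci1 (0.141). With the length trend removed adjusted p was 0.0936 for Ndufa1, 0.129 for Cox7a1, 0.0888 for Cox5a, 0.0763 for Etfb and 0.0615 for Eci1. Quantile normalization took the calls of Cox7a1 (0.0543) and Etfb (0.0562), and with length and GC trends removed those of Ndufa1 (0.0904), Cox7a1 (0.0919), Cox5a (0.0979) and Etfb (0.0508) were lost. Of 24 glycolysis and hypoxia genes 1 fell, Bnip3 (-0.80 (SE 0.22, adjusted p = 0.0409)), and 0 rose, against 2.27% and 3.37% of all genes (median -0.37, and -0.09 after quantile normalization). The Bnip3 call was lost without mouse 2 (adjusted p = 0.241) or mouse 3 (0.141), with the length trend (0.0534) or the length and GC trends (0.0514) removed, and with thinned reads (0.0527).

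Markers of cardiomyocytes moved with them. The 25 markers, none of them at 0 in all 6 libraries, made up 13.3%, 14.2% and 13.3% of normalised counts in the uninjured regions and 11.0%, 9.23% and 9.87% in the injured ones. Their median was -0.67 (by mouse -0.32, -0.91 and -0.64), or -0.17 after quantile normalization. In 3 of 3 mice 23 of these markers were lower, against 24.7% of all genes. Of the 25 markers only Tcap, the telethonin of the sarcomere, fell (-1.04 (SE 0.30, adjusted p = 0.0464)), against 2.27% of all genes. Its values were 47830.3, 68863 and 27423 and 28369, 20911 and 17617. The call was lost in 7 alternatives beside those of the block: without mouse 2 (limma, adjusted p = 0.338) or mouse 3 (0.169), with the length trend (0.0854) or the length and GC trends (0.0569) removed, after quantile normalization (0.0823), without the filter (0.0546) and with thinned reads (0.0508). Myh6, the adult cardiac myosin, was at 249885, 243822 and 357306 and 164381, 156260.5 and 228683 (-0.63 (SE 0.45, adjusted p = 0.405)), and Mb, myoglobin, at 375427, 427496 and 264048 and 290942, 198887 and 165489 (-0.72 (SE 0.48, adjusted p = 0.370)). Neither passed in the paired fit, though DESeq2 called both (adjusted p = 0.0124 and 0.0136). In pieces of tissue, fewer cells of a type and less RNA per cell cannot be told apart. The part of cardiomyocyte content in the lower metabolic genes was not tested.

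Lpl, the lipoprotein lipase that feeds fatty acids to the heart, was at 127737, 242291 and 158870.2 and 86627, 78013 and 83033, with -1.04 (SE 0.40, adjusted p = 0.110). It passed with edgeR (adjusted p = 0.0492), DESeq2 (0.000745), a robust prior (limma, 0.0236) and without mouse 1 (limma, 0.0140). 

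**Figure D4:**
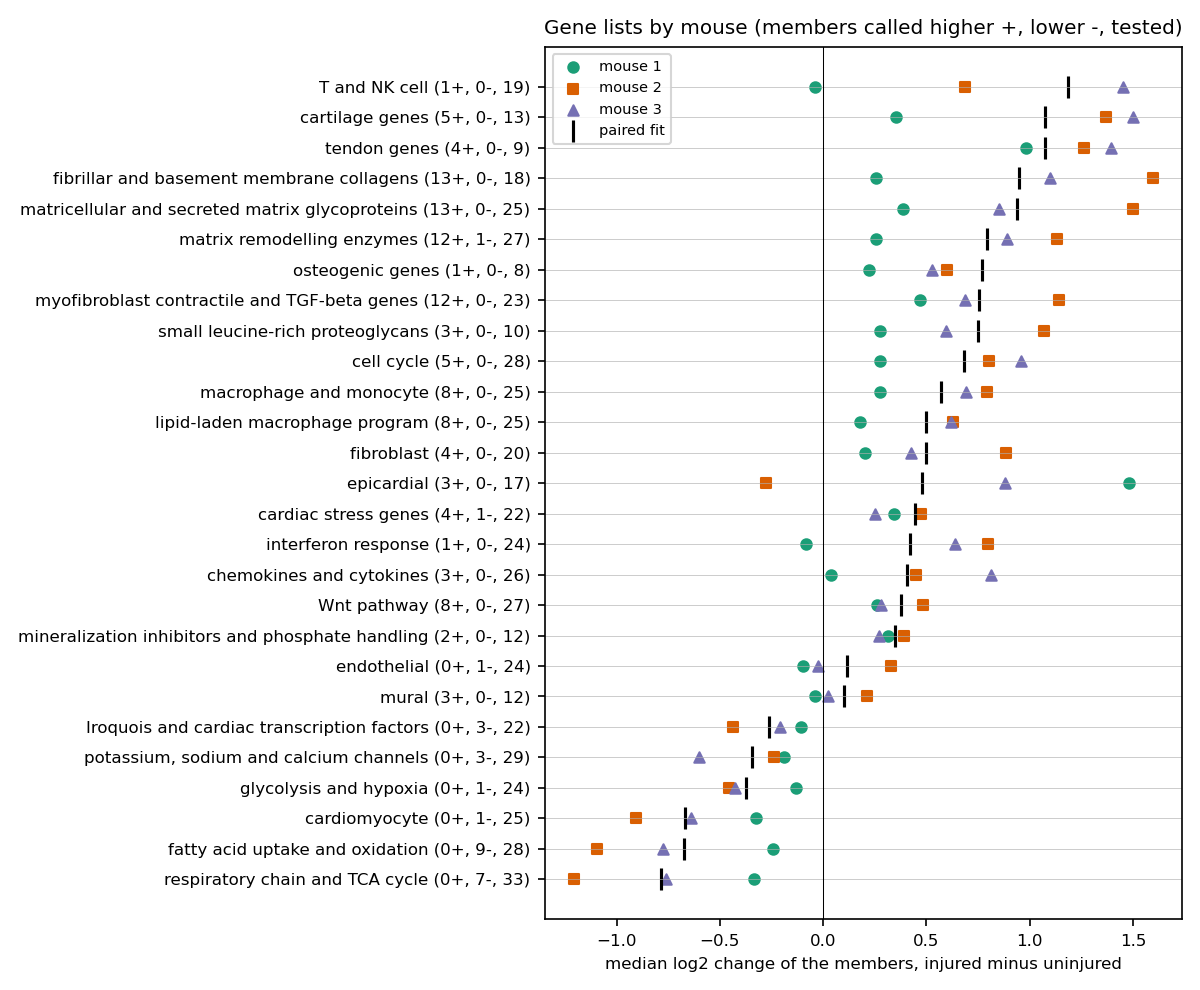
Median log2 change of the tested members of each gene list, by mouse (symbols) and in the paired fit (bars), with the number of members called higher and lower and the number tested beside each name. Matrix lists lie to the right of 0 in all 3 mice, at 0.26, 1.60 and 1.10 for the collagens, and the respiratory list to the left at -0.34, -1.21 and -0.76, with mouse 1 nearest to 0 in both.

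Macrophage genes rose in part. Of 25 such markers, of macrophages and monocytes, 8 rose and 0 fell, against 3.37% and 2.27% of all genes (median 0.57, by mouse 0.27, 0.79 and 0.69). The list made up 0.294%, 0.259% and 0.222% of normalised counts in uninjured and 0.405%, 0.530% and 0.402% in injured regions. On average 20 markers were higher and 5 lower, the lowest at -0.80, and 4 were lower in 3 of 3 mice. Ccr2, the chemokine receptor of monocytes that enter from blood, was at 289, 419 and 219 and 600.1, 951 and 619.8 and rose by 1.24 (SE 0.21, adjusted p = 0.00337). Adgre1, the F4/80 antigen, rose by 1.02 (SE 0.20, adjusted p = 0.0108), and Cd68, a lysosomal protein, by 1.02 (SE 0.21, adjusted p = 0.0165). Mertk, a receptor for the uptake of dead cells, went from 61.5, 45.6 and 227 to 110.1, 207 and 337 and rose by 1.18 (SE 0.31, adjusted p = 0.0330). The most abundant marker, the lysozyme gene Lyz2, was at 14249, 16288 and 10453 and 19867, 21202 and 15408 and did not pass (0.47 (SE 0.24, adjusted p = 0.224)). It passed after quantile normalization (limma, adjusted p = 0.0103) and with length and GC trends removed (0.0488). The calls of Adgre1 and Cd68 were lost without mouse 3 (adjusted p = 0.0644 and 0.0657), and that of Mertk without mouse 2 (0.232) or with the length trend removed (0.0501). With mouse 1, 2 or 3 left out 14, 5 and 2 markers rose.

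Genes of lipid-laden macrophages rose in part. Of 25 members 8 rose and 0 fell, against 3.37% and 2.27% of all genes (median 0.50). On average 20 were higher and 5 lower, the lowest being Lpl at -1.04, which did not pass. Together the members made up 1.50%, 1.94% and 1.69% of normalised counts in uninjured and 1.51%, 1.67% and 1.55% in injured regions. In the uninjured regions Lpl alone held 127737, 242291 and 158870 of the 268717, 390169 and 290335 normalised counts of the list. In the injured ones Lpl held 86627, 78013 and 83033 of 249204, 257128 and 226855. Gpnmb, a glycoprotein of macrophages that have taken up debris, went from 161, 62.2 and 157 to 556, 683 and 966 and rose by 2.61 (SE 0.27, adjusted p = 1.30e-05). Itgax, the integrin CD11c, went from 27.2, 22.8 and 35.4 to 93.8, 109 and 97.1 and rose by 1.80 (SE 0.36, adjusted p = 0.0135). Trem2, a lipid-sensing receptor, went from 484, 477 and 296 to 941, 1169.7 and 603 and rose by 1.09 (SE 0.20, adjusted p = 0.00709). Each of these 3 was separated between regions and was called with each mouse left out. Apoe, the apolipoprotein, rose by 1.18 (SE 0.28, adjusted p = 0.0242), and its call was lost without mouse 2 (adjusted p = 0.0546) or mouse 3 (0.249). Without mouse 1, 2 and 3 the list held 10, 8 and 3 genes that rose.

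Most genes of signals that recruit leukocytes did not pass. Over all genes tested 3.37% rose and 2.27% fell. Of 26 chemokine and cytokine genes 3 rose and 0 fell (median 0.41, range 0.27 to 0.69), and 6, 2 and 1 rose without mouse 1, 2 and 3. Ccl8, a monocyte chemokine, went from 545, 294 and 222 to 763, 1196 and 565 and rose by 1.28 (SE 0.24, adjusted p = 0.00991). Cxcl5, a neutrophil chemokine, went from 549, 236 and 48.3 to 689, 648 and 229.5, with mouse 3 lowest in both regions, and rose by 1.33 (SE 0.28, adjusted p = 0.0162). The Cxcl5 call was lost without mouse 3 (adjusted p = 0.108). Of 24 interferon response genes 1 rose, Irf7, the transcription factor of type I interferon genes (0.91 (SE 0.24, adjusted p = 0.0370)), and 0 fell. Irf7 was at 2072, 1182 and 888 and 2453, 4313 and 1378, and its call was lost without mouse 2 (adjusted p = 0.290) or with thinned reads (0.0528). The interferon list had medians of -0.08, 0.80 and 0.64 by mouse, and 9, 0 and 1 members rose without mouse 1, 2 and 3.

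Lymphocyte genes were at the low end of detection. Of all genes tested, 3.37% rose and 2.27% fell. The 21 T and NK cell markers measured made up 0.00196%, 0.00235% and 0.00175% of normalised counts in uninjured and 0.00239%, 0.00475% and 0.00360% in injured regions. The 19 of them that were tested had a median of 1.18 (range 0.42 to 1.58), with -0.04, 0.69 and 1.45 by mouse. Of these 19, 16 were higher and 3 lower on average, and 18 were not called. Cd4 rose by 1.81 (SE 0.42, adjusted p = 0.0229), from 9.47, 18.7 and 33.0 to 45.7, 68.3 and 92.0, and its call was lost without mouse 3 (adjusted p = 0.0764). Of 10 B cell markers 1 rose, the lectin receptor gene Cd22 (2.69 (SE 0.47, adjusted p = 0.00541)), from 5.92, 12.4 and 10.6 to 40.8, 79.3 and 86.0. On average 7 of the 10 were higher and 3 lower, the lowest at -1.02. Of 8 neutrophil markers 1 rose, the receptor gene Csf3r, from 62.7, 45.6 and 64.8 to 90.5, 196 and 169 (1.33 (SE 0.33, adjusted p = 0.0279)). The Csf3r call was lost without mouse 2 (adjusted p = 0.145) or mouse 3 (0.0831). The neutrophil list was split, with 4 members higher and 4 lower on average (median -0.03, by mouse -1.07, 1.21 and 0.34). Parvg, a parvin of blood cells that is in none of the lists, went from 33.1, 6.22 and 17.7 to 35.9, 148 and 117 and rose by 2.38 (SE 0.56, adjusted p = 0.0243). The Parvg call was lost without mouse 2 (adjusted p = 0.103), with a robust prior (limma, 0.0685) and with thinned reads (0.0733).

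Of 28 cell cycle genes 5 rose and 0 fell, against 3.37% and 2.27% of all genes. Of the 28, 23 were higher in 3 of 3 mice, against 23.1% of all genes (median 0.68, by mouse 0.27, 0.80 and 0.96). Top2a, the topoisomerase of dividing cells, was at 382, 205 and 199 in uninjured and 637, 600.2 and 585 in injured regions and rose by 1.28 (SE 0.23, adjusted p = 0.00556). The injured values lay close together and the uninjured region of mouse 1 stood between them and the other uninjured regions. Mki67, the Ki-67 antigen, rose by 1.06 (SE 0.24, adjusted p = 0.0201), and its call was lost without mouse 3 (adjusted p = 0.117). The count of cell cycle genes that rose was 10, 4 and 1 without mouse 1, 2 and 3. Which cells divide cannot be read from whole pieces of tissue.

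Fibroblast markers rose in part. Of 20 markers 4 rose and 0 fell, against 3.37% and 2.27% of all genes (median 0.50, range 0.29 to 0.68, by mouse 0.20, 0.89 and 0.42). Beside Postn they included Mfap4, a microfibril protein, from 5633, 1676 and 1911 to 6207, 7357 and 7054 (1.39 (SE 0.28, adjusted p = 0.0135)), and the transcription factor gene Meox1 (1.05 (SE 0.21, adjusted p = 0.0135)). The Meox1 call was lost without mouse 3 (adjusted p = 0.0892). Left-out fits gave 9, 4 and 1 fibroblast markers that rose, without mouse 1, 2 and 3 in that order.

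Markers of other cells that a piece of heart can hold differed between the pairs. Over all genes tested 3.37% rose and 2.27% fell. Of 17 epicardial markers 3 rose (median 0.48, range 0.16 to 1.02), with medians of 1.48, -0.28 and 0.88 in mice 1, 2 and 3, so that mouse 2 went against the others, and 1, 6 and 2 rose without mouse 1, 2 and 3. Upk3b, an uroplakin of mesothelium, was at 39.0, 363 and 163 and 380.0, 394 and 438 and rose by 1.60 (SE 0.37, adjusted p = 0.0227). Its lowest value was in the uninjured region of mouse 1, and it was almost level in mouse 2. Its call was lost with DESeq2 (adjusted p = 0.227), a robust prior (limma, 0.304) and without mouse 1 (limma, 0.0593). Aldh1a2, the retinoic acid synthase of activated epicardium, rose by 0.87 (SE 0.20, adjusted p = 0.0231), and its call was lost without mouse 3 (adjusted p = 0.150). Of 24 endothelial markers 1 fell, Npr3, and 0 rose (median 0.12, range -0.03 to 0.22). On average 17 of the 24 were higher and 7 lower. Among the lower was Fabp4, the most abundant, at 26286, 34898 and 17703 and 23272, 16992 and 13554 (-0.53 (SE 0.27, adjusted p = 0.217)). Of 12 mural cell markers 3 rose and 0 fell (median 0.10, range 0.04 to 0.19), and 5, 1 and 3 rose without mouse 1, 2 and 3. On average 7 of the 12 were higher and 5 lower, and 4 were higher and 4 lower in 3 of 3 mice. Of 15 Schwann cell and neuron markers 1 rose and 1 fell, the latter Dbh, the enzyme of noradrenaline synthesis in sympathetic nerves. On average 10 of the 15 were higher and 5 lower. Dbh went from 81.6, 78.8 and 35.4 to 31.0, 18.1 and 7.74 and fell by 1.83 (SE 0.43, adjusted p = 0.0243), with the call lost without mouse 2 (adjusted p = 0.0628), without mouse 3 (0.0591) or with thinned reads (0.0521). Atrial, skeletal muscle, valve, adipocyte, mast cell, erythroid and lung lists had medians of -0.17, 0.27, 0.31, -0.38, 0.16, -0.68 and 0.36, and of these the atrial, skeletal muscle, mast cell and lung medians changed sign under at least 1 alternative. The part of the tissue composition of each piece in the differences above was not tested.

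The injury effect in B6 was then set against that in C3H hearts, a strain known for calcification of injured heart muscle. All 11 libraries entered this fit, with the animal as a block, and the B6 libraries are the same as above. The difference of the effects passed for 498 of the 14325 genes (3.48%), of which 442 had the higher value in C3H, and for 112 of the 808 genes called in B6. It passed for 115 genes without B6 mouse 1, 931 without B6 mouse 2, 192 without B6 mouse 3 and 166 without C3H mouse 2. The C3H mice had high Xist (from 1839.8 to 8478 normalised counts, against 3.14 to 12.2 in B6) and the B6 mice high Y-linked genes, so that strain and sex cannot be told apart.

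Spp1 and several macrophage genes, though not all of these, changed more in C3H than in B6. Which cells hold the Spp1 transcript cannot be read from whole pieces of tissue. Gpnmb changed by 2.61 in B6 and 7.57 (SE 0.32) in C3H, a difference of 4.96 (SE 0.42, adjusted p = 0.000236). Spp1 changed by 0.77 and 7.51 (SE 0.27), a difference of 6.74 (SE 0.35, adjusted p = 7.79e-06), and Itgax by 1.80 and 6.78 (SE 0.32), a difference of 4.99 (SE 0.41, adjusted p = 0.000236). For Lyz2, which did not pass in B6, the values were 0.47 and 2.88 (SE 0.26), a difference of 2.41 (SE 0.33, adjusted p = 0.00297). Among matrix genes Col11a1 differed between the strains by 5.00 (SE 0.74, adjusted p = 0.00407). For Gpnmb, Spp1, Itgax, Lyz2 and Col11a1 the difference was called with each B6 mouse left out in turn. C3H mouse 3 had no injured library, so that leaving it out could not change the estimates. Without C3H mouse 1 or 2 a single C3H pair was left. The difference was then 6.34 or 7.13 for Spp1 and 6.56 or 3.45 for Col11a1. The strain difference did not pass for Apoe, at -0.17 (SE 0.46, adjusted p = 0.888), or Mertk, at 1.23 (SE 0.64, adjusted p = 0.338).

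The genes with the smallest p within B6 were mixed in this respect. The difference passed for Gpnmb and for Ltbp2, at 3.24 (SE 0.74, adjusted p = 0.0365), the latter lost with some animal left out (adjusted p up to 0.176). It did not pass for Fmod, at 1.51 (SE 0.51, adjusted p = 0.140), Cilp, at 1.50 (SE 0.56, adjusted p = 0.184), C1qtnf3, at 3.34 (SE 0.89, adjusted p = 0.0705), or Col8a2, at 1.79 (SE 0.78, adjusted p = 0.247), each with the higher value in C3H. It did not pass either for several genes with the lower value in C3H. Thbs4 changed by 3.49 (SE 0.45) in C3H, a difference from B6 of -0.65 (SE 0.58, adjusted p = 0.60). Angptl7 differed by -0.64 (SE 0.41, adjusted p = 0.440), Cnn1 by -0.48 (SE 0.49, adjusted p = 0.655) and Nppa by -1.03 (SE 0.75, adjusted p = 0.514). Of the genes that fell, Irx1 changed by -4.24 (SE 0.54) in C3H, with a difference of -0.21 (SE 0.70, adjusted p = 0.915), Irx5 by -1.94 (SE 0.32) with 0.40 (SE 0.41, adjusted p = 0.663), and Npr3 by -2.37 (SE 0.28) with -0.69 (SE 0.36, adjusted p = 0.342). Timp4 differed by 0.01 (SE 0.42, adjusted p = 0.991). These values do not show that the strains respond alike.

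**Figure D5:**
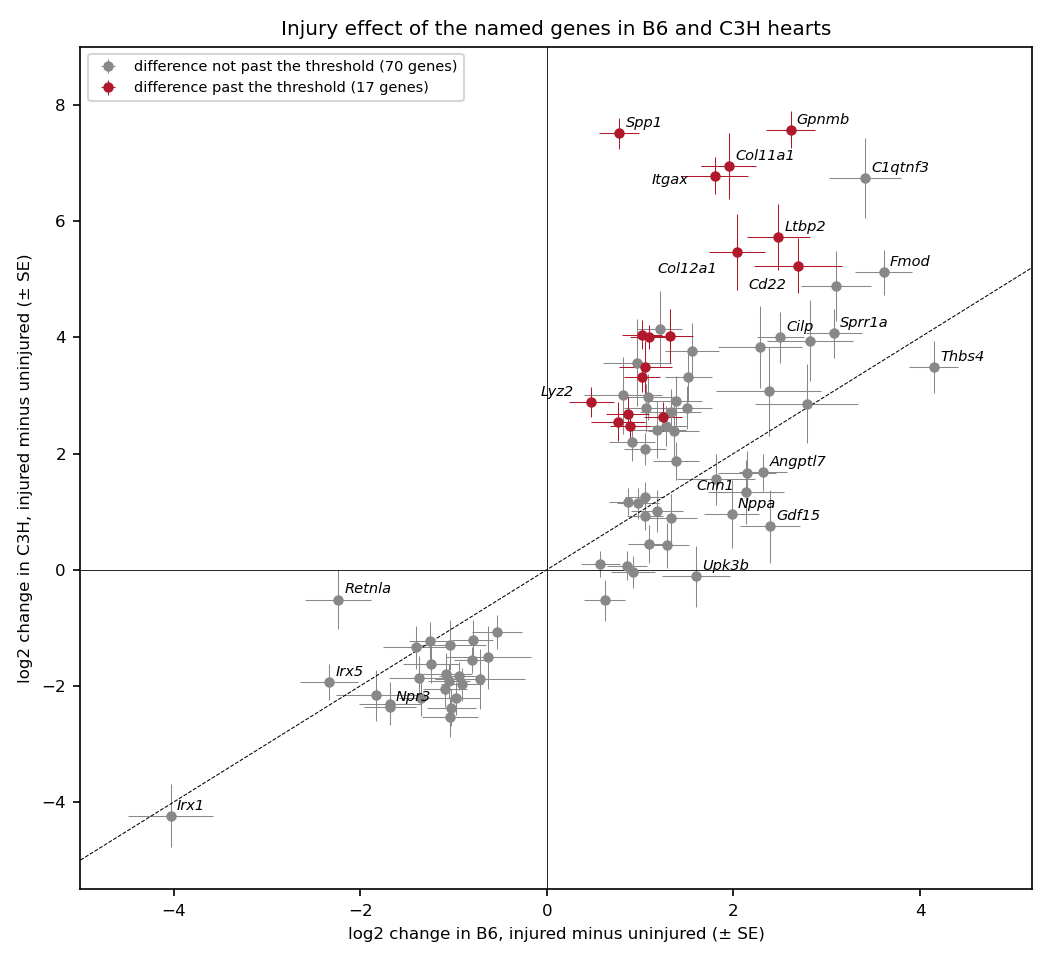
Log2 change (injured minus uninjured, with SE) of the 87 named genes in B6 (x axis, paired fit of 6 libraries) and in C3H (y axis, fit of all 11 libraries), with a dashed line where both are equal. The 17 genes in red differ between the strains past the threshold and all lie above the line, as Spp1 does with 0.77 and 7.51, while Irx1, Irx5 and Npr3 lie near it.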

How the data were processed

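RNA sequencing of 6 B6 heart libraries was analysed, with 5 C3H libraries for the difference between strains. Per the submitters' processing notes, the authors used TopHat2 2.0.11, HTSeq 0.6.1, DESeq and mouse build mm9. Per the labels, total RNA was column-purified and libraries followed standard Illumina preparation. The sources used here do not state the annotation, strandedness or filters. Signal, as deposited, is the authors' normalised count per gene symbol: reads divided by 1 size factor per library. All values of each B6 library were whole multiples of 1 step (100% at a tolerance of 1e-06), which gave 9699985 to 20257174 reads per library, and edgeR, DESeq2 and thinned fits used the reads so recovered.

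Tests ran on log2(normalised count + 1), a scale that understates changes of low genes. Genes with 10 or more in at least 2 of 6 libraries entered a limma 3.58.1 fit (R 4.3.3) with the mouse as a fixed block, 2 residual degrees of freedom and an empirical Bayes trend. Two-sided p was adjusted by Benjamini-Hochberg over 14325 genes, at a threshold of 0.05. The labels name the mouse of each library, and residuals of the libraries of a mouse correlated at 0.310, -0.0190 and 0.567 in mice 1, 2 and 3 (0.361 as a random block). A sign-flip test over 3 mice cannot give p below 0.25, so that calls rest on the spread shared across genes. The strain difference was an interaction in all 11 libraries with the animal as a block (3 residual degrees of freedom). Scripts were tested on simulated data.

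There were 37 lists, 20 of pathways and 17 of markers. Of 701 symbols 648 were found, 5 of them through a synonym, and 620 were tested. Lists are described by counts and medians, without a test. Members and lists were chosen with earlier results of these data known. Genes were named by rule: the 15 largest increases and 10 largest decreases called, with a mean of at least 50 and the same sign in 3 of 3 mice; the 2 members with the smallest p in each list; the marker with the highest mean in each marker list; and a fixed set, with other list members for range. Symbols in these groups were not all described, and some are not reported here. Transcript lengths were the longest of GENCODE M21 (GRCm38), known for 96.4% of genes, 97.5% of those that rose and 94.2% of those that fell. Length and GC trends were removed by loess (span 0.5), and reads were thinned to 9699985. Other alternatives were the block, pseudocounts 0.5 and 5, filters, quantile and TMM normalization, edgeR 4.0.16, DESeq2 1.42.0, a robust prior and each mouse left out.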

Additional observations from a re-analysis of the deposited data

Results flagged for a closer look

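For 17 of the 87 named genes the injury effect differed between the strains by a test of the difference itself (limma on all 11 libraries with the animal as a block, adjusted over the 14325 genes), each with the higher value in C3H. Strain and sex cannot be told apart in these differences. The difference on the log2 scale, C3H minus B6, was 6.74 for Spp1 (adjusted p = 7.79e-06), the osteogenic gene that macrophages also secrete. For macrophage genes it was 4.96 for Gpnmb (0.000236), 4.99 for Itgax (0.000236), 3.03 for Cd68 (0.000928), 2.92 for Trem2 (0.000573), 2.41 for Lyz2 (0.00297) and 2.29 for Adgre1 (0.00402). These 7 and Col11a1, at 5.00 (0.00407), were called with each B6 mouse left out in turn. Leaving out C3H mouse 3, which had no injured library, could not change the estimates. Without C3H mouse 1 or 2 a single C3H pair was left.

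For the other 9 the call was lost with some animal left out. In matrix genes the difference was 3.43 for Col12a1 (limma, adjusted p = 0.0492, up to 0.276 with an animal left out), 3.24 for Ltbp2 (0.0365, up to 0.176), 2.70 for Tnc (0.0347, up to 0.208), 2.43 for Postn (0.0438, up to 0.390) and 1.58 for Lox (0.0198, up to 0.106). Among genes of bone and mineral balance it was 1.82 for Enpp1 (0.0192, up to 0.0894) and 1.78 for Runx2 (0.0489, up to 0.385). It was 2.54 for Cd22 (0.0477, up to 0.475) and 1.39 for Ccr2 (0.0407, up to 0.191). Without the animal as a block, adjusted p rose past the threshold for Ccr2 (0.112), Cd22 (0.0706), Col12a1 (0.220), Enpp1 (0.104), Lox (0.143), Ltbp2 (0.110), Postn (0.245) and Tnc (0.303). With a pseudocount of 0.5 it did so for Cd22 (0.0552), Col12a1 (0.0543) and Runx2 (0.0507), and with quantile normalization for Cd22 (0.0587).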

How the results depend on the processing

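The count of 808 genes called for injury in B6 was 3 without the mouse as a replicate block, 22 with a random block and 23 with all 11 libraries. It was 1244 with a robust prior. With a mouse left out it ran from 267 to 2158. Counts under the other alternatives run were within 1.5 times: 747 and 863 with pseudocounts 0.5 and 5, 871 and 896 without a filter and with a filter at 50, 982 and 931 with quantile and TMM normalization, 796 with edgeR, 989 with DESeq2 (446 up, 543 down), 568 and 837 with length and with length and GC trends removed, and 648 thinned. The last 3 were chosen after seeing the data. All 808 calls kept their direction wherever fitted, which was largely fixed in advance because most had the same sign in 3 of 3 mice. The count for the strain difference, 498, was 224 without the animal as a replicate block, 481 with pseudocount 0.5 and 693 with quantile normalization, and with an animal left out it ran from 115 to 931. The planned edgeR fit of the strain difference was not run. Depth limits low genes: 1 read was worth 2.07 normalised counts in the uninjured region of mouse 2 and 0.786 in its injured region. Of the 77 called genes named, 16 were called with a random block and 16 with all 11 libraries. Calls of named genes changed under the other alternatives stand beside their values.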
